A study of Mus musculus with 8 samples.

Results

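The genes described here encode the receptors that sense glutamate on retinal neurons and the proteins that hold these receptors at excitatory synapses. They were chosen by name in a table of 18058 genes: the AMPA (Gria), kainate (Grik), delta (Grid) and NMDA (Grin) receptor genes, the metabotropic glutamate receptor genes (Grm, without Grm6), and the scaffold genes Dlg1 to Dlg4, Dlgap1 to Dlgap4, Shank1 to Shank3 and Homer1 to Homer3. The 38 genes described include Grid2ip, which was caught by the spelling of its name and encodes a binding partner of a delta receptor, not a receptor. The genes were compared between 4 libraries from retinae of adult WT mice and 4 libraries from adult mice with a knockout (KO) of Bcan, Ncan, Tnc and Tnr, called quadruple KO, which encode the extracellular matrix proteins brevican, neurocan and the tenascins C and R. The libraries of each genotype carry the letters A to D, and all 8 were made from total RNA of whole retina.

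The quadruple KO mice came from crosses of the single KO lines, and the WT mice were of the inbred background strain 129S2/SvPasCrl bought from a breeder. Differences of genotype therefore cannot be told apart from differences of colony, or of strain around the targeted genes or elsewhere. Adult animals of both sexes were used, and the labels give neither the sex nor the exact age behind a library. The sources used here name no promoter or cell type that limits the knockouts. The methods describe retinae as pooled before RNA extraction and give no number of animals per pool. The labels do not say whether the libraries come from separate pools or mice, so p-values measure the spread between these libraries, which may be technical in part.

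Glutamate is the transmitter of photoreceptors, bipolar cells and ganglion cells in the retina. AMPA and kainate receptors are fast cation channels that carry light-driven signals in OFF bipolar, horizontal, amacrine and ganglion cells, NMDA receptors add a slower current that needs a co-agonist and depends on voltage, and metabotropic receptors signal through G proteins. At a postsynaptic site, Dlg proteins bind receptor tails, Dlgap proteins tie Dlg to Shank, and Shank binds Homer, which in turn binds group I metabotropic receptors.

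Values are normalized counts, that is, estimated read counts per gene divided by a scaling factor of the library. The sums of the 8 libraries corresponded to about 23.8 to 40.6 M reads in WT and 38.9 to 52.5 M in the quadruple KO, as estimated from the spacing of low values. The libraries labelled as quadruple KO held Ncan at 0 to 0.853 against 688 ± 94.0 in WT (mean ± SD, n = 4) and Bcan at 15.0 ± 4.79 against 258 ± 54.7. Tnr was at 2509 ± 95.1 against 5856 ± 340.2, and Tnc was at 1175 ± 104 against 1265 ± 330.3, with overlapping groups, so the level of Tnc RNA does not check the labels. The paper reports loss of part of the Tnc sequence in quadruple KO mice and no Tnc protein in their postnatal retina. WT B and WT C stood apart from the other 6 libraries: the RNA of the signal recognition particle took 19.3% and 14.8% of their counts against 6.82% to 8.69% elsewhere, mitochondrial mRNA took 0.402% and 0.341% against 1.28% to 1.64%, and the first principal component, with 50.9% of the variance, separated them from the rest. For each gene whose value in every library is printed below, the genotype difference is therefore also given against WT A and WT D only.

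All 38 genes were measured, and all 38 passed the filter for testing (a mean normalized count of 10 or more), as did 17636 genes in all. Per kb of canonical transcript, Dlg4 (PSD-95), a major scaffold protein of excitatory synapses, stood highest with a WT level of 3006 ± 175 (SD, n = 4), and its libraries did not overlap with those of Dlg2 (PSD-93), next in order at 1121 ± 102. The kainate receptor subunit gene Grik1 (938 ± 45.4) and the obligatory NMDA receptor subunit gene Grin1 (874 ± 17.2) followed, and these neighbours overlapped. Dlgap1 (681 per kb), Grik5 (610.3), Dlgap4 (597), Dlg1 (590.0), Shank1 (541), Gria4 (485) and Dlgap3 (414) came next in an order in which each overlapped with its neighbour. At the low end, Grin2c, Grid2ip, Dlgap2, Grm3 and Grik4 lay between 25.0 and 35.1 per kb, and Grin3b, a glycine-binding NMDA receptor subunit gene, was lowest with 6.83 ± 1.66.

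**Figure D1:**
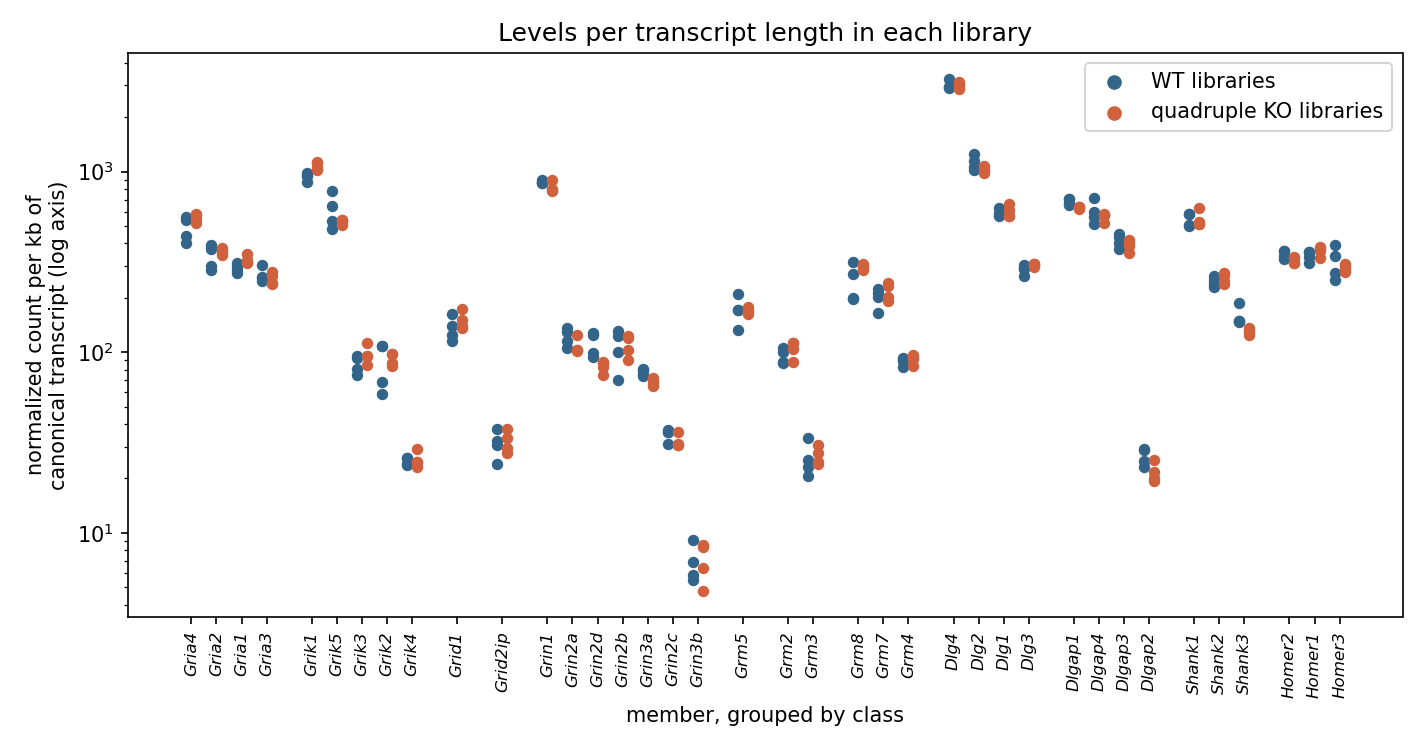
Normalized count per kb of canonical transcript (log axis) of the 38 genes, grouped by class and sorted within it by the WT mean; each point is 1 library, blue for WT and orange for quadruple KO. Dlg4 lies above all other genes at a WT mean of 3006 per kb and Grin3b below all at 6.83, and the colours lie close together in every class.

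The comparison of genotypes asked whether the loss of the 4 matrix proteins goes along with a changed level of any receptor or scaffold RNA. None of the 38 genes was called by limma at an adjusted p under 0.05, at which 77 of the 17636 genes tested (0.437%) were called, 31 lower (0.176%) and 46 higher (0.261%) in the quadruple KO. At an unadjusted limma p under 0.05 there were 5 of 38 genes (13.2%), beside 16.6% of all genes. They were Grin2d, Shank3, Dlgap2 and Grin3a with lower values in the quadruple KO (10.5%, beside 7.28% of all genes) and Grik1 with higher values (2.63%, beside 9.29%). With weights for library quality, under which WT B and WT C counted least, 143 genes were called in all (0.811%), none of them among the 38, and 10 of the 38 (26.3%, beside 16.3% of all genes) had an unadjusted p under 0.05. With the library letter as a replicate block, 3 of the 38 did (7.89%, beside 14.2%) and none was called (beside 0.289%). In whole retina, fewer cells that hold an RNA and less RNA per cell cannot be told apart.

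The differences were small. The median of the 38 log2 differences (quadruple KO minus WT) was 0.02, with 23 above and 15 below 0, beside -0.0002 over all genes. The median of their sizes was 0.11, beside 0.19 over all genes, and none of the 38 exceeded 0.5 in size, as 12.2% of all genes did. The 38 were also measured more closely, with a median SE of 0.107 beside 0.148 over all genes. At a minimum mean of 100, 37 of the 38 remained, beside 12630 of the 17636 genes. The part of this precision in the smaller sizes was not tested. The widest 95% interval among the 38 was that of Grin3b, from -0.57 to 0.63, and that of Grin1 ran from -0.26 to 0.05. The libraries of the genotypes did not overlap in 6 genes (15.8%, beside 9.74% of all genes). The quadruple KO lay below WT in Grin2d, Grin3a, Dlgap1 and Shank3 (10.5%, beside 3.58%) and above WT in Gria1 and Grik1 (5.26%, beside 6.16%). Separation of 4 from 4 libraries fixes the exact two-sided permutation p at 0.0286, the smallest possible. For these 6 genes that p therefore adds nothing to the separation itself.

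**Figure D2:**
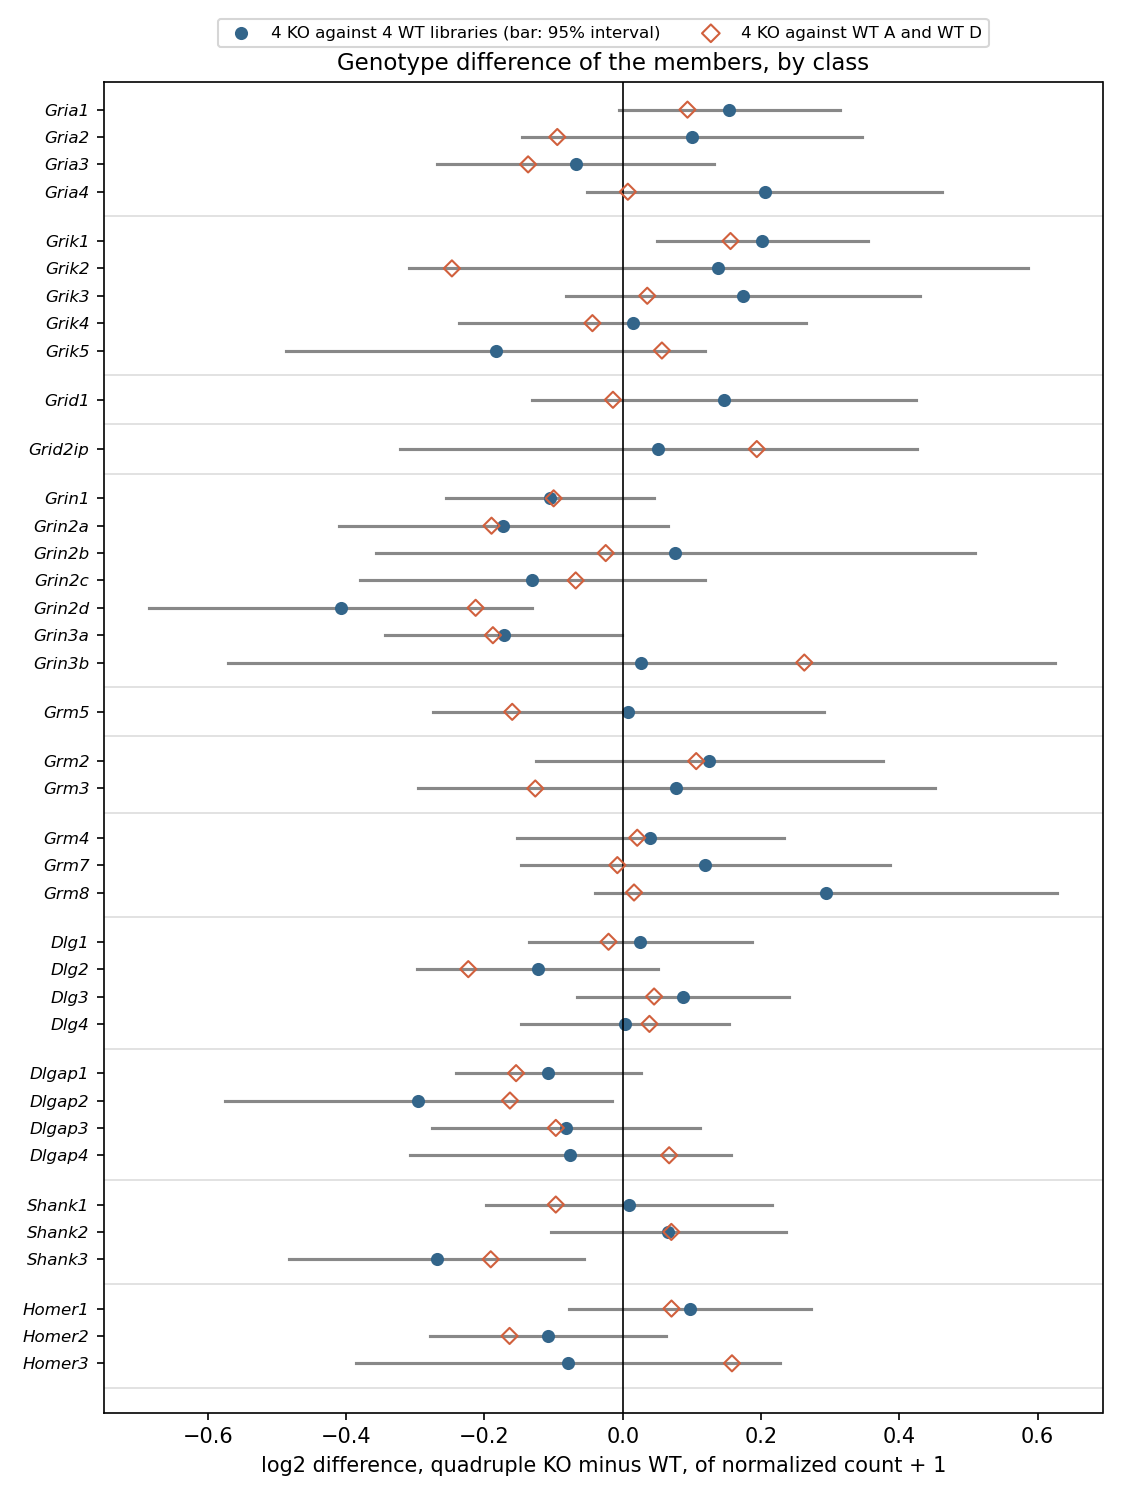
Log2 difference of normalized count + 1 between quadruple KO and WT for the 38 genes by class; filled points compare 4 with 4 libraries and carry 95% intervals, and open diamonds compare the 4 quadruple KO libraries with WT A and WT D. The interval excludes 0 in 5 genes, of which Grik1 lies above 0 and the other 4 below, and Grik2, Grik5, Gria2 and Homer3 are among the 13 genes whose diamond lies on the other side of 0.

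The 4 genes Gria1 to Gria4 encode the subunits of the fast AMPA channel, and their summed level per kb was 1383 ± 165 in WT and 1493 ± 69.9 in the quadruple KO, with overlapping libraries. Per kb, Gria4 was the highest of the class. Before division by length Gria2 was higher, with a WT mean of 3642 against 2741 for Gria4. Gria4 measured 3162, 2469, 2267 and 3065 in WT A to D and 3253, 3292, 2919 and 3065 in quadruple KO A to D. WT B and WT C lay below the other 6 libraries, which covered a narrow range. Its log2 difference came to 0.21 (SE 0.11, limma adjusted p = 0.332) and 0.01 against WT A and WT D. Gria1 had the smallest p of the class, with 1829, 1619, 1674 and 1754 in WT and 1904, 2053, 1849 and 1847 in the quadruple KO. All 4 quadruple KO libraries lay above all WT libraries. The margin was narrow, with 1829 as the highest WT and 1847 as the lowest quadruple KO value, and the limma log2 difference was 0.15 (SE 0.07, adjusted p = 0.302) and 0.09 against WT A and WT D. Gria2, whose subunit makes the channel impermeable to calcium once its RNA is edited, ran from 3058 to 4242 in WT and 3709.9 to 4040.2 in the quadruple KO, and Gria3 from 1368 to 1687 and 1319 to 1532. The share of Gria2 in the class per kb was 24.4% ± 1.03 in WT and 24.1% ± 0.35 in the quadruple KO. Without division by length it was 37.9% and 37.5%.

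Among Grik1 to Grik5, Grik1 was the highest and had the smallest p. Its subunit, GluK1, is the main kainate receptor subunit of several OFF cone bipolar types. Grik1 (ENSMUSG00000022935.17, chr16:87692788-88087153 of GRCm39) measured 3501, 3363, 3121 and 3408 in WT A to D and 3983, 4044, 3750.2 and 3632 in quadruple KO A to D. The groups did not overlap, and WT C was the lowest of all. Between the genotypes the log2 difference was 0.20 (SE 0.07, 95% interval 0.05 to 0.35, limma adjusted p = 0.301) and 0.16 against WT A and WT D. Of 8 markers of OFF cone bipolar cells, 5 had log2 differences above 0 and 3 below, with a median of 0.05 (0.01 against WT A and WT D), 2 had an unadjusted limma p under 0.05, none was called and none was at 0. These 2, picked after their values were seen, were Tacr3, a neurokinin receptor gene, and Lhx4, a homeobox gene. The quadruple KO lay above WT in all libraries for both, as for Grik1 and for 6.16% of all genes, and the other markers overlapped. The log2 difference of Tacr3 was 0.33 (SE 0.11, limma adjusted p = 0.301) and 0.16 against WT A and WT D, and that of Lhx4 was 0.27 (SE 0.09, adjusted p = 0.301) and 0.15. Syt2, high in WT B and WT C, had -0.23 and 0.05. The sum of the 8 markers overlapped between the genotypes, at 6843 to 7442 in WT and 6761 to 7392 in the quadruple KO, and the part of these cells in the difference of Grik1 was not tested.

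The composition of the kainate class differed in the same gene. Per kb, Grik1 made up 53.8% ± 3.49 of the class in WT (49.98% to 57.2%) and 59.2% ± 0.32 in the quadruple KO (58.9% to 59.6%), again with no overlap, and the same held without division by length. WT B and WT C had the lowest shares, and the difference of 5.39 percentage points came to 2.46 against WT A and WT D, which stood at 56.3% and 57.2%. Grik5 is the gene of a high-affinity subunit that needs a partner such as GluK1 or GluK2. It measured 2300.5 to 3690.1 in WT and 2413 to 2559 in the quadruple KO, and WT B and WT C were the highest, so that its log2 difference was -0.18 against all WT libraries and 0.06 against WT A and WT D. Grik2 ran the other way, with 1015, 645, 554 and 1026 in WT A to D, 786 to 923 in the quadruple KO, and log2 differences of 0.14 and -0.25. The quadruple KO thus lay between the WT pairs for Grik2, and no direction of genotype can be given for it. Grik3 (696 to 881 against 783 to 1039.8) and Grik4 (149 to 163 against 144 to 182) overlapped. Grik5 overlaps Zfp574 on the other strand. The methods name a directional library kit. How strand entered the counting is not given in the sources used here.

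**Figure D3:**
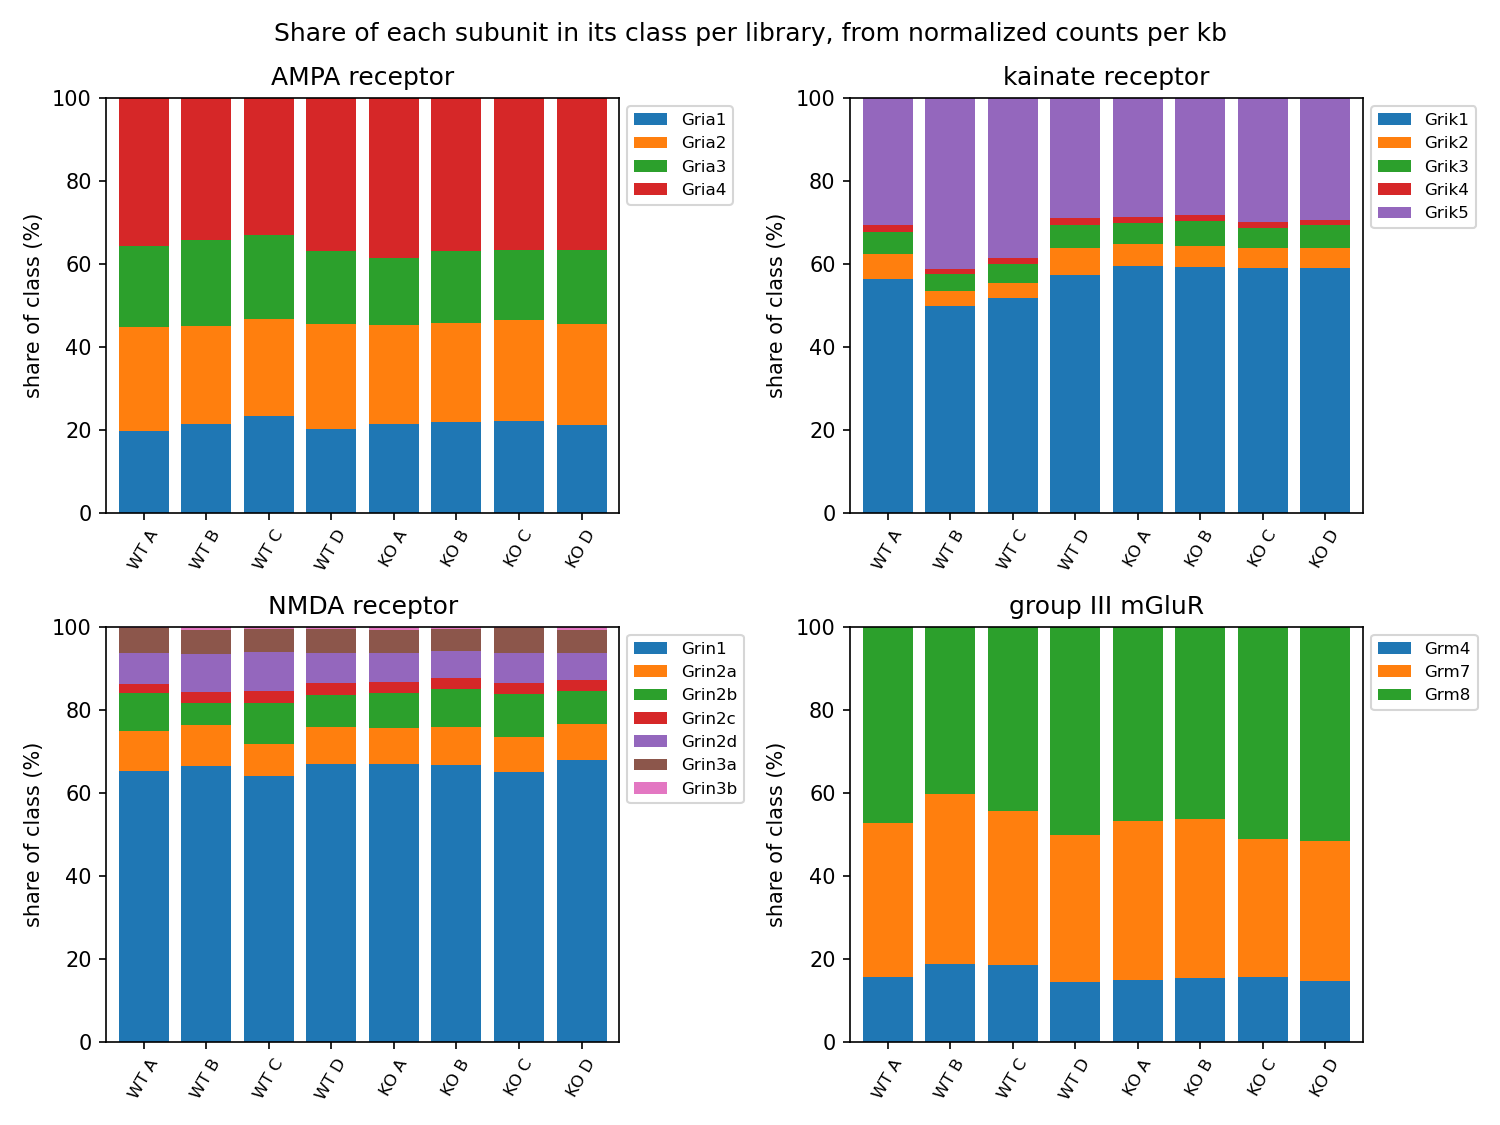
Share (%) of each gene in the sum of its class, from normalized counts per kb, in each of the 8 libraries for the AMPA, kainate, NMDA and group III metabotropic receptor genes. Grik1 holds 58.9% to 59.6% of the kainate class in the quadruple KO and 49.98% to 57.2% in WT, where WT B and WT C have the lowest values; Grm8 holds 40.3% to 50.1% of the group III genes in WT and 46.3% to 51.7% in the quadruple KO, and these ranges overlap.

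Grid1 encodes a delta receptor, one of a class that works at many synapses as an adhesion partner of cerebellins. Grid1 measured 976, 753, 698 and 841 in WT A to D and 1045, 905, 818 and 838 in quadruple KO A to D. Its groups overlapped, with a log2 difference of 0.15 (SE 0.12, adjusted p = 0.48) and -0.01 against WT A and WT D. Grid2ip was low, with 91.2 to 143 in WT and 106 to 143 in the quadruple KO.

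The 7 NMDA receptor genes had 5 log2 differences below 0 and 2 above, with a median of -0.13, and their summed level per kb was 1332 ± 28.6 in WT and 1222 ± 81.3 in the quadruple KO, with overlapping libraries. Grin1, which every NMDA receptor needs, measured 3796, 3871, 3707 and 3728 in WT A to D and 3457, 3859, 3354 and 3391 in quadruple KO A to D. Quadruple KO B lay within the WT range and the other 3 quadruple KO libraries below it. Its log2 difference was -0.11 (SE 0.07, adjusted p = 0.371) and -0.10 against WT A and WT D.

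Grin2d, the gene of a subunit with slow decay and weak magnesium block, had the largest log2 difference of the 38. Grin2d (ENSMUSG00000002771.13, chr7:45481304-45527802 of GRCm39) measured 540.4, 677, 698 and 508 in WT A to D and 451, 478, 475 and 407 in quadruple KO A to D. The groups did not overlap, but WT B and WT C stood well above WT A and WT D. The log2 difference was -0.41 (SE 0.12, 95% interval -0.68 to -0.13, limma adjusted p = 0.301) and -0.21 against WT A and WT D. Leaving out WT B and WT C thus moved it by more than 1.5 times. Its share of the class per kb was 8.36% ± 1.21 in WT and 6.83% ± 0.39 in the quadruple KO and overlapped slightly, with 7.25% as the lowest WT and 7.33% as the highest quadruple KO value. The difference of -1.53 percentage points came to -0.49 against WT A and WT D. Without division by length, the share was 6.35% in WT and 5.07% in the quadruple KO, and the libraries did not overlap. Grin2d overlaps Kdelr1 on the other strand.

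Grin3a, whose subunit lowers the calcium permeability of NMDA receptors, measured 619, 611, 566 and 584 in WT A to D and 520.0, 555, 535 and 502 in quadruple KO A to D. The groups were separate by a small margin, and WT B and WT C did not stand out. The log2 difference was -0.17 (SE 0.08, limma adjusted p = 0.301) and -0.19 against WT A and WT D. The other NMDA receptor genes overlapped: Grin2a with 1566 to 2016 in WT and 1500.3 to 1854 in the quadruple KO, Grin2b with 1694 to 3189 and 2199.5 to 2994, and Grin2c with 165 to 199 and 163 to 192. Grin3b, at 18.0 to 30.1 and 15.6 to 28.1, was too low for its difference to be measured closely. The subunits of Grin2a and Grin2b, whose balance shifts during development in many neurons, overlapped in their shares too. Per kb, Grin2a made up 9.12% ± 0.96 and 8.80% ± 0.37 of the class and Grin2b 7.94% ± 2.04 and 8.93% ± 1.06 in WT and quadruple KO. Without division by length, the shares were 19.0% and 17.9% for Grin2a and 26.6% and 29.5% for Grin2b, again with overlap. Which of the 2 genes held more of the class in WT thus depended on the division by length.

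**Figure D4:**
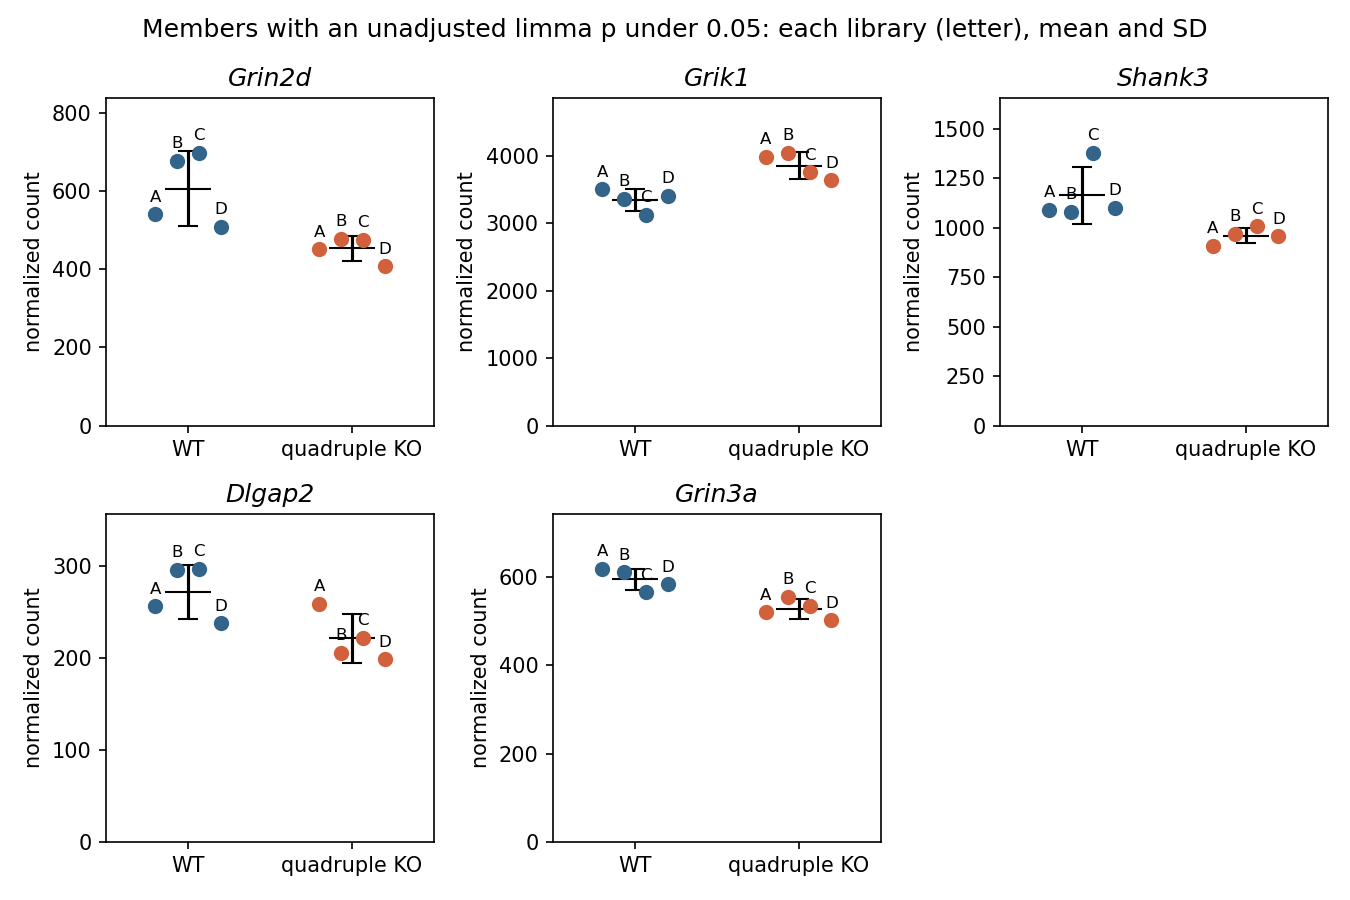
Normalized count of the 5 genes with an unadjusted limma p under 0.05, for each library (letter) of WT (blue) and quadruple KO (orange), with horizontal bars for the mean and SD of 4 libraries; axes start at 0. Groups do not overlap in Grin2d, Grik1, Shank3 and Grin3a and overlap in Dlgap2, and none of the 5 was called after adjustment over all genes.

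Grm5 encodes a metabotropic receptor that couples to Gq and sits with Homer at the edge of excitatory synapses. It measured 1790.3, 1453, 1130.2 and 1460.4 in WT A to D and 1465, 1511, 1392 and 1424 in quadruple KO A to D. WT C was the lowest and WT A the highest of the 8 libraries, and WT B and WT D lay within the range of the quadruple KO. The log2 difference was 0.01 (SE 0.13, 95% interval -0.28 to 0.29, adjusted p = 0.974) and -0.16 against WT A and WT D, so no direction of genotype can be given for it.

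Group II receptors inhibit adenylyl cyclase. Grm2 measured 504, 418, 479.6 and 419 in WT A to D and 539, 534, 496 and 420.3 in quadruple KO A to D. Its groups overlapped (log2 difference 0.13, SE 0.11, adjusted p = 0.504, and 0.11 against WT A and WT D), as did those of Grm3 with 111 to 181 and 129 to 165.

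Among the group III genes, which encode presynaptic receptors in much of the retina, Grm8 was both the highest per kb and the one with the smallest p. It measured 1040.5, 764, 767 and 1216 in WT A to D and 1099, 1129.8, 1187 and 1136 in quadruple KO A to D. WT B and WT C were the lowest, and WT D the highest of all 8 libraries. Its log2 difference came to 0.29 (SE 0.15, adjusted p = 0.314) against all WT libraries and 0.02 against WT A and WT D. Grm4 (384 to 427 against 385 to 448) and Grm7 (693 to 936 against 808 to 1018) overlapped.

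The Dlg proteins are the PSD-95 family of receptor anchors, and their summed level per kb was 5005 ± 173 in WT and 4944 ± 184 in the quadruple KO. Dlg4 measured 16041, 15858, 17885 and 16018 in WT A to D and 17179, 15739, 16184 and 16798 in quadruple KO A to D. WT C was the highest of all. Its log2 difference came to 0.00 with a 95% interval of -0.15 to 0.15 (adjusted p = 0.98) and 0.04 against WT A and WT D, and its sign changed when the scaling factors were recomputed. Dlg2 measured 9377, 7645, 7977 and 8598 in WT and 7771, 7394, 7538 and 8078 in the quadruple KO, with WT A and WT D above every quadruple KO library and WT B and WT C within their range. Its log2 difference was -0.12 (SE 0.08, adjusted p = 0.369) and -0.22 (adjusted p = 0.206) against WT A and WT D. Dlg1, the gene of SAP97, ran from 3792 to 4157 in WT and 3768 to 4377 in the quadruple KO, and Dlg3, the gene of SAP102, from 1463 to 1677 and 1636 to 1713.

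Dlgap proteins bind the Dlg proteins and Shank. All 4 log2 differences of their genes lay below 0 against the 4 WT libraries, with a median of -0.10, and 3 of 4 did against WT A and WT D, where that of Dlgap4 was 0.07. Dlgap1, the highest of the class, measured 3779.9, 3600.5, 3497 and 3791 in WT A to D and 3405, 3419.9, 3447 and 3336 in quadruple KO A to D. The groups did not overlap, but the lowest WT library exceeded the highest quadruple KO library by little. Its log2 difference was -0.11 (SE 0.06, adjusted p = 0.33) and -0.15 against WT A and WT D. Dlgap2, one of the scarcest of the 38, measured 256, 296, 297 and 238 in WT and 259, 206, 222 and 198 in the quadruple KO. Quadruple KO A lay within the WT range, and WT B and WT C were the highest. The log2 difference was -0.30 (SE 0.12, limma adjusted p = 0.301) and -0.16 against WT A and WT D, where the unadjusted p no longer lay under the threshold. Dlgap3 (1547 to 1875 against 1482 to 1735) and Dlgap4 (2625 to 3652 against 2643 to 2978) overlapped.

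Shank1, the highest Shank gene, measured 5752, 4909, 5008 and 5739 in WT A to D and 5211, 6203, 5084 and 5069 in quadruple KO A to D. Quadruple KO B exceeded all other libraries, and the log2 difference was 0.01 (95% interval -0.20 to 0.22, adjusted p = 0.956) and -0.10 against WT A and WT D. Shank3 (ENSMUSG00000022623.18, chr15:89383826-89444464 of GRCm39) measured 1092, 1081, 1381 and 1102 in WT A to D and 911, 969.6, 1008 and 957 in quadruple KO A to D. The groups did not overlap, and WT C stood far above the other WT libraries. The log2 difference was -0.27 (SE 0.09, 95% interval -0.48 to -0.06, limma adjusted p = 0.301) and -0.19 against WT A and WT D. Shank2 overlapped at 2410.0 to 2772 and 2509 to 2874, and the summed level per kb of the class was 944 ± 35.2 and 932 ± 65.6.

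Homer2, the highest Homer gene per kb by a margin within the spread, measured 695, 657, 634 and 699.9 in WT A to D and 649.8, 598, 642 and 601 in quadruple KO A to D. Only WT C lay among the quadruple KO values (log2 difference -0.11, SE 0.08, adjusted p = 0.41, and -0.16 against WT A and WT D). Homer1 (1741 to 2006 against 1866 to 2143) and Homer3 (668 to 1043 against 738 to 818) overlapped too. Homer3 lies 0.162 Mb from Ncan on chromosome 8, the only one of the 38 genes within 1 Mb of a called gene, and its log2 difference was -0.08 (SE 0.14) against all WT libraries and 0.16 against WT A and WT D. Homer3 overlaps Ddx49 and Grin3b overlaps Tmem259 on the other strand. On the same strand, Dlg1, Dlg2, Grik2, Grm5 and Homer1 overlap other genes measured in these libraries. Gria2 lies 7.18 Mb from Bcan, and the other genes on the chromosomes of the targeted genes lie 14.0 Mb or more away. Called genes were not limited to those chromosomes. Of the 77 called in all, 24 lay on chromosome 2, which holds Grin1 and Dlgap4. Chromosome 17, which holds Grm4 and Dlgap1, had 11. The libraries of the genotypes did not overlap for Dlgap1, and the nearest called gene lay 39.1 Mb from it. The part of strain in any difference was not tested.

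The WT libraries also differed among themselves. In 17 of the 38, WT B and WT C were both below WT A and WT D (44.7%, beside 35.8% of all genes), and in 6 both were above (15.8%, beside 35.1%). The log2 difference of WT B and WT C against WT A and WT D went along with the GC content of the canonical transcript over the 38 genes (Pearson's r = 0.73, Spearman's rho = 0.72), beside 0.39 and 0.42 over 17554 genes in all. These are descriptions across genes measured in the same 4 libraries. Grik2, with a GC content of 38.0%, and Gria2, with 37.6%, lay at the low end, and Grin2d, with 65.0%, and Grik5, with 63.9%, at the high end.

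In the 9 genes of lowest GC content (37.6% to 45.7%), the median log2 difference of genotype was 0.08 against all WT libraries, with 6 above 0, and -0.14 against WT A and WT D. In the 9 of highest GC content (60.6% to 66.6%) it was -0.08, with 3 above 0, and -0.07. Against WT A and WT D, 8 of the 38 genes had an unadjusted limma p under 0.05 (21.1%, beside 11.6% of all genes) and none was called (beside 0.527% of all genes). Of these, Dlg2, Dlgap1, Grik2, Grin2d, Grin3a, Homer2 and Shank3 had lower values in the quadruple KO and Grik1 had higher values. With the pair left out, WT is represented by 2 libraries.

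**Figure D5:**
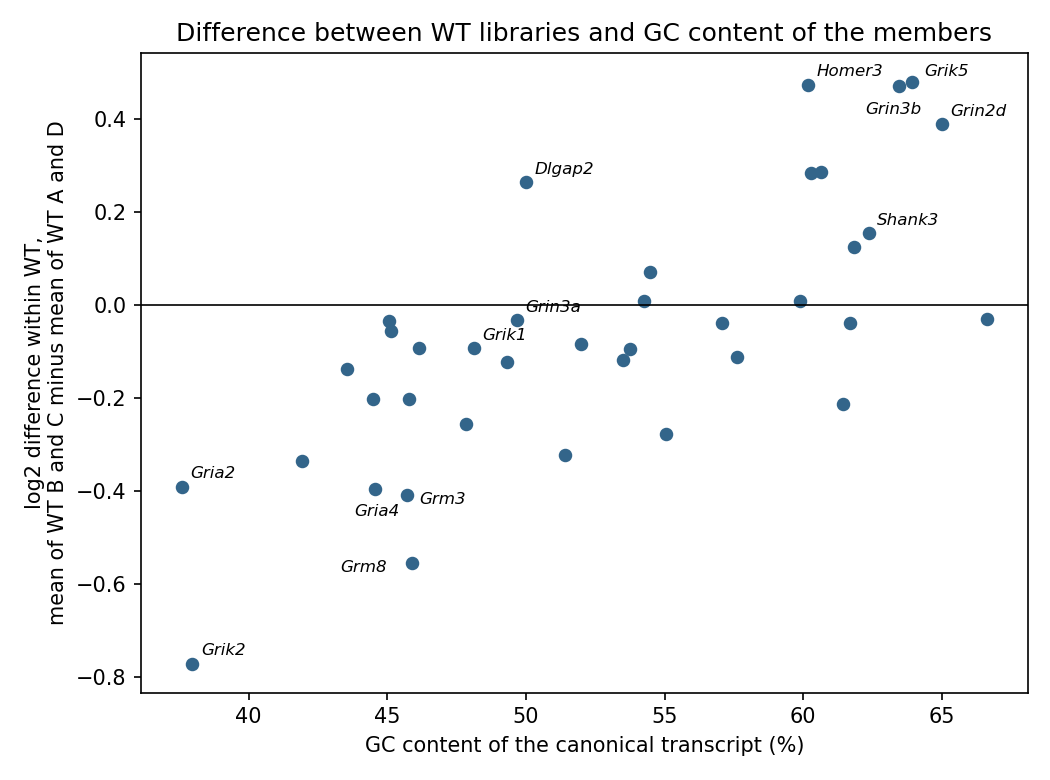
Log2 difference within WT (mean of WT B and WT C minus mean of WT A and WT D, vertical axis) against the GC content (%) of the canonical transcript (horizontal axis); each point is 1 of the 38 genes, and names are given for genes beyond 0.35 in size or with an unadjusted limma p under 0.05. Points rise from Grik2 at 38.0% GC to Grik5 and Grin2d at 63.9% and 65.0%, while Grik1 and Grin3a lie near 0.

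Proteins that travel with these receptors were taken from a list of 59 auxiliary subunits, anchors and secreted organizers, all of which were measured and tested. None was called by limma, and 8 (13.6%, beside 16.6% of all genes) had an unadjusted p under 0.05, of which 4 had lower and 4 higher values in the quadruple KO. Srr, the gene of serine racemase, which makes the NMDA receptor co-agonist D-serine, measured 1078, 841, 901 and 1176 in WT A to D and 1269, 1185, 1293 and 1328 in quadruple KO A to D. Its groups did not overlap, but WT D and quadruple KO B differed by less than the spread within either group (log2 difference 0.36, SE 0.11, adjusted p = 0.301, and 0.17 against WT A and WT D). Iqsec2, an exchange factor bound to PSD-95, measured 809, 758, 732 and 597 in WT and 617, 590.4, 564 and 553 in the quadruple KO, where only WT D lay among the quadruple KO values (log2 difference -0.31, SE 0.10, adjusted p = 0.301, and -0.26). Syndig1l, a relative of the AMPA receptor partner SynDIG1, measured 522, 860.0, 762 and 448 in WT and 416, 449.9, 474 and 434 in the quadruple KO, with WT B and WT C far above the rest (log2 difference -0.50, SE 0.19, adjusted p = 0.301, and -0.13).

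Markers of the cells that carry these receptors were read in the same libraries. The summed level of 11 markers of retinal ganglion cells was 35479.8 to 40091 in WT and 29572 to 34582 in the quadruple KO, with no overlap; 9 of 11 log2 differences lay below 0, 5 had an unadjusted limma p under 0.05, none was called, none was at 0, and the median was -0.23, or -0.17 against WT A and WT D. The log2 differences of Thy1 (0.05) and Pou4f1 (0.29) lay above 0. Like the sum of these markers, Grin2d, Grin3a, Shank3 and Dlgap1 lay below WT in all 4 quadruple KO libraries. Gria1 and Grik1 lay above WT in all 4, and the other receptor and scaffold genes overlapped. The part of ganglion cells in these differences was not tested. In the other 13 lists the summed levels of the genotypes overlapped and no marker in the table was at 0 in all libraries. These were OFF cone bipolar, ON and rod bipolar, horizontal, amacrine and starburst amacrine cells, rods, cones, Mueller glia, pigment epithelium, lens, endothelium, microglia and oligodendrocytes, with median log2 differences from -0.52 (lens, 3 markers) to 0.26 (oligodendrocytes, 3 markers). Among their markers the only one called was the cone gene Pde6c. The retinal identity of the samples showed in the rod markers, whose summed level was 1108056 to 1506406 in WT and 1491014 to 1627034 in the quadruple KO.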

How the data were processed

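Retinal total RNA of 4 WT and 4 quadruple KO libraries was sequenced by the authors. Per the labels and methods, they trimmed reads with Trim Galore 0.6.7, aligned them with STAR 2.7.9a to GRCm39, estimated counts with Salmon 1.5.2 and normalized them with DESeq2 1.32.0. The deposited table holds these normalized estimated counts per library, beside the authors' mean, fold change and p-value columns, which were not used. Libraries were grouped by genotype label.

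Normalized counts were tested as log2(count + 1) with limma 3.58.1 (trend) in R 4.3.3, over 17636 genes with a mean of at least 10, with Benjamini-Hochberg adjustment; called genes had an adjusted p under 0.05. Exact permutation tests (two-sided) used normalized counts. The method was tested on simulated data with changes larger than any seen in the 38 genes and without the shared pattern of WT B and WT C. That test therefore does not show how well differences as small as these are found. Transcript lengths, GC content and positions came from a GENCODE annotation of GRCm39, which held 17969 of 18058 genes. Depth was estimated, since only 47.2% to 68.7% of low values lay on whole reads; intervals cover the spread between libraries. Values in every library are printed for the highest gene per kb and the smallest p of each class and for genes with an unadjusted p under 0.05, and of the auxiliary list for the 3 smallest p. The 38 genes and all lists were chosen with earlier results of these data known; some genes that the naming rule also finds are not reported here. Alternatives covered scaling, filter, pseudocount, variance prior, library weights, a replicate block and left-out libraries. Plots used matplotlib 3.10.9 in Python 3.11.15, with numpy 2.4.6 and pandas 2.3.3.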

Additional observations from a re-analysis of the deposited data

Results flagged for a closer look

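In 7 of the 76 groups of 4 libraries (38 genes in 2 genotypes), 1 library lay far from the other 3 by Dixon's criterion, which chance meets in about 1 of 20 groups. Quadruple KO B was the distant library for Grin2a, with 1854 against 1500.3 to 1528 in the other quadruple KO libraries. It was also distant for Grin2c, with 192 against 163 to 166. For Shank1, quadruple KO B measured 6203 against 5069 to 5211. Quadruple KO A was the low library for Dlg3, with 1636 against 1701 to 1713. Quadruple KO D was the low library for Dlgap4, with 2643 against 2921 to 2978. WT C was the high library for Dlg4, with 17885 against 15858 to 16041, and for Shank3, with 1381 against 1081 to 1102.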

How the results depend on the processing

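The count of genes called by limma among the 38 was 0 in the reported fit and under all 19 alternatives. With array weights, 10 genes had an unadjusted p under 0.05 in place of 5 and 143 genes were called in all in place of 77. Against WT A and WT D, 8 had an unadjusted p under 0.05. Leaving out 1 library at a time gave 3 to 7 genes with an unadjusted p under 0.05; leaving out WT B or any 1 quadruple KO library gave 3, leaving out WT D gave 7, and the share of all genes at that p then ran from 7.75% (without WT B) to 34.2% (without WT D). The auxiliary list had 0 called under all 19. The sign reversed for Grik2, which came to -0.25 against WT A and WT D, and for Grm5, which came to -0.20 with array weights, both past an unadjusted p of 0.05 there. In all, 16 of 38 genes changed sign under at least 1 alternative and 22 under none; 13 did so against WT A and WT D. Grin2d kept an unadjusted p under 0.05 under all 19 and Grik1 and Shank3 under 18. Grin3a kept it under only 7. Dlgap2 lost it with array weights, with the replicate block and against WT A and WT D, among others. Shares within a class moved when counts were not divided by length, and the genotypes then no longer overlapped in the share of Grin2d. With the letter as a replicate block, 0 of the 38 genes were called and 3 had an unadjusted p under 0.05. Of all genes, 51 were then called, beside 77. No pairing by letter was seen. Deviations of same-lettered libraries correlated at -0.01, -0.11, 0.10 and 0.05, and WT A correlated best with quadruple KO B. WT B and WT C stood apart within WT, so these correlations cannot exclude a weaker pairing. Depth limited the precision for Grin3b, and with WT B and WT C left out WT rests on 2 libraries.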

Other observations

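The other 5 genes of the auxiliary list with an unadjusted limma p under 0.05 were picked after their values were seen, and none was called (adjusted p = 0.301 for each). Cbln2, a secreted ligand that links presynaptic neurexin to delta receptors, measured 1401, 1126, 1059.8 and 1409 in WT A to D and 1445, 1511, 1512 and 1449 in quadruple KO A to D. The groups did not overlap, but the log2 difference of 0.26 (SE 0.10) came to 0.07 against WT A and WT D. Grip1, a PDZ protein that binds AMPA receptor tails, measured 1982, 2643, 2314 and 1802 and 1759, 1807, 1748 and 1784, with WT B and WT C the highest and log2 differences of -0.28 (SE 0.11) and -0.09. Shisa7, an auxiliary subunit gene, measured 376, 413, 325 and 368 and 301, 349, 312 and 279, with log2 differences of -0.26 (SE 0.11) and -0.27. The adhesion protein gene Lrrc4, with 819.8, 782, 649 and 854 and 915, 954, 984 and 834, had log2 differences of 0.25 (SE 0.10) and 0.14. The kinase gene Camk2g, with 3679, 3068, 3131 and 3851 and 3946, 3898, 3999 and 3834, had 0.20 (SE 0.09) and 0.06. Of these 5, the difference of Shisa7 was about as large without WT B and WT C, and those of the other 4 were smaller.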
